A study of Mus musculus with 12 samples.

Results

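Genes that encode secreted growth factors and glial cytokines were followed in cells selected from mouse brain white matter: Igf1, Fgf1, Fgf2, Pdgfa, Csf1, Il33, Lif, Il6, Vegfa and Bdnf. They were taken by gene symbol, as 10 of 19505 genes with a named transcript cluster on the array, and each had a single cluster. The series profiled white matter cells of C57BL/6 mice fed cuprizone, a copper chelator toxic to oligodendrocytes that causes demyelination, with and without GnT-IX, the brain glycosyltransferase encoded by Mgat5b. Cells were freed with papain, treated with an Fc receptor block and picked with beads against GLAST, the astrocyte glutamate transporter encoded by Slc1a3. Affymetrix arrays then measured their RNA, and the deposited values are log2 expression from RMA, a method that corrects background, sets the arrays to one distribution and summarises the probes of each cluster. The 4 groups held 3 biological replicates each, with 1 array per replicate: GnT-IX-deficient mice after 12 weeks of cuprizone, and wild-type mice after 0, 3 and 12 weeks. The diet held 0.2% (w/w) cuprizone and began at 8 to 12 weeks of age in both genotypes. Weeks of diet thus went with age, and effects of cuprizone and age cannot be told apart, since no age-matched untreated group was analysed here. No GnT-IX-deficient group at 0 or 3 weeks was analysed here. Rises, falls and differences given for GnT-IX-deficient mice without another reference are thus against wild-type mice at 0 weeks. In that comparison genotype, diet and age differ together, and their effects cannot be told apart. Whether a replicate pooled animals and which of 2 RNA kits was used for which sample are not given in the sources used here, and kit and group cannot be told apart.

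Glia send these proteins to their neighbours. IGF-1 acts on the IGF-1 receptor, a tyrosine kinase, and binding proteins hold it until proteases release it; PDGF-AA drives the division of oligodendrocyte precursors through PDGF receptor alpha, and FGF-2 acts beside it. CSF-1 keeps microglia alive, IL-33 is an alarmin stored in the nuclei of glia, LIF and IL-6 signal through the shared receptor chain gp130, VEGF-A acts on endothelium, and BDNF acts on the neurotrophin receptor TrkB.

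Mgat5b had values of 3.70, 4.19 and 4.06 in GnT-IX-deficient arrays, the 9 wild-type arrays lay between 5.57 and 6.49 and each stood above each GnT-IX-deficient array. At 12 weeks the difference was -1.82 (SE 0.21, limma adjusted p = 0.00159). The 11 measured homeostatic astrocyte markers had group means of 8.62 in GnT-IX-deficient arrays and of 9.14, 8.44 and 8.89 in wild-type arrays at 0, 3 and 12 weeks, all above the array medians of 5.38 to 5.45. Of these 11 markers 6 fell and 1 rose at 3 against 0 weeks, 1 fell and 1 rose at 12 against 0 weeks in wild-type, and 4 fell and 1 rose in GnT-IX-deficient against untreated wild-type mice, with medians of -0.94, -0.48 and -0.70. The called shares are 63.6%, 18.2% and 45.5% of the list, against 3.24%, 2.64% and 4.11% of all genes. None of the 11 was called between the genotypes or at 12 against 3 weeks. The 11 include Slc1a3, whose own values follow, and Gfap, which is not specific to homeostatic astrocytes. Slc1a3, the gene of the antigen used for selection, read 7.51, 6.92 and 7.37 in GnT-IX-deficient arrays, and in wild-type arrays 8.84, 8.19 and 8.01 at 0 weeks, 7.0, 7.50 and 6.49 at 3 weeks and 7.24, 7.05 and 7.61 at 12 weeks. All 9 cuprizone arrays lay below the untreated ones. Slc1a3 fell by 1.35 at 3 weeks (SE 0.27, limma adjusted p = 0.0150), a call lost when untreated replicate 1 (0.0839) or 3-week replicate 3 (0.0569) was left out. In GnT-IX-deficient mice it fell by 1.08 (limma adjusted p = 0.0396), a call lost when untreated replicate 1 or 2 (0.178 and 0.0950) or GnT-IX-deficient replicate 2 or 3 (0.148 and 0.0838) was left out. At 12 weeks in wild-type the difference was -1.05 (limma adjusted p = 0.0545, past 0.05 in 5 of 14 alternatives). Markers of other cells were present too. The 10 oligodendrocyte markers averaged 9.34 in GnT-IX-deficient arrays and 9.85, 9.80 and 9.14 in wild-type arrays at 0, 3 and 12 weeks. The 13 microglia and macrophage markers averaged 7.22, 8.24 and 7.64 in the GnT-IX-deficient arrays, and in wild-type arrays 5.73, 5.16 and 5.32 at 0 weeks, 8.83, 6.99 and 6.48 at 3 weeks and 7.88, 9.00 and 8.05 at 12 weeks. GnT-IX-deficient replicates 1 and 2 stood apart in choroid plexus markers: the 9 measured averaged 8.13 and 7.12 there, and 5.49 in replicate 3, which lay within the wild-type range of 4.38 to 5.92.

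The genes that passed the test are Igf1 and Pdgfa, and the 250 bases before their RefSeq transcript starts (GRCm38.p6) are shown, 5′ to 3′ on the gene's strand, because both were higher at 3 weeks. Igf1 has a window at chr10:87860861-87861110 on the plus strand, with 52.8% G and C. Pdgfa has windows at chr5:138994282-138994531 and chr5:138994945-138995194 on the minus strand, with 66.4% and 72.4%. These windows lie inside the RefSeq bounds of the genes, chr10:87858265-87937047 for Igf1 and chr5:138976014-139000792 for Pdgfa. They thus precede inner transcript starts, and the outermost start of each gene is not shown. Capitals mark matches to an AP-1 motif (TGANTCA, where N is any base) in Igf1 and to a GC box (GGGCGG or its reverse complement CCGCCC) in Pdgfa. The match in Igf1 reads TGAATCA, with A at the open base.
Igf1: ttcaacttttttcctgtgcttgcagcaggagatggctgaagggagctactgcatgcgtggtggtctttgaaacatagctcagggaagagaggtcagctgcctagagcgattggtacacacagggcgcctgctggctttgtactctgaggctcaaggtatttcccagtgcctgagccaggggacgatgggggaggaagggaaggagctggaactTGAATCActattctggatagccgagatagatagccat
Pdgfa, first window: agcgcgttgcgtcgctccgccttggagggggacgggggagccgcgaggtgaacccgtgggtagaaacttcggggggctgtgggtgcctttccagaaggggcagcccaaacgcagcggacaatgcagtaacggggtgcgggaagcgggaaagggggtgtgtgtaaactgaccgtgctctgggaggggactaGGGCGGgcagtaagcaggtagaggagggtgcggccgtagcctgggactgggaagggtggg
Pdgfa, second window: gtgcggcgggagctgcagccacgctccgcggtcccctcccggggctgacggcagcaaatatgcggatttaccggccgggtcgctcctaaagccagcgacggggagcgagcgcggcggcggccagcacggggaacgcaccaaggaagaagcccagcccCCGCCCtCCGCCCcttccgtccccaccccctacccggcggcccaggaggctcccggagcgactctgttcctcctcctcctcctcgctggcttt
The AP-1 match of Igf1 begins 37 bases before the start, and the GC boxes of Pdgfa begin 60 bases before the start in the first window and 93 and 86 bases before it in the second. AP-1, GC box, EGR, C/EBP, TATA and PU.1 motifs were searched on both strands in the 18 windows of the 9 genes with an entry, and in all 32851 windows. AP-1 was found in 6.75% of all windows and in 4 of the 18 windows, of Igf1, Lif, Il6 and Bdnf. The GC box was found in 32.7% of all windows and in 8 of the 18, of Pdgfa, Csf1, Fgf2, Vegfa and Bdnf. An EGR motif (GCGNGGGCG) was found in 4.7% of all windows and in 1 of the 18, of Fgf2. A C/EBP motif (TTNNGCAA) was found in 9.56% of all windows and in 2 of the 18, of Il33 and Il6. A TATA box (TATAAA) was found in 12.4% and in 2 of the 18, of Il33, and a PU.1 motif (GAGGAAGT) in 2.44% and in none of the 18. A match describes the letters of a window and is not a bound site.

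Igf1 encodes insulin-like growth factor 1, a survival and growth factor for oligodendrocytes and their precursors. Its level was 7.43, 8.05 and 8.12 in GnT-IX-deficient arrays after 12 weeks, and in wild-type arrays 6.11, 5.79 and 5.93 at 0 weeks, 8.61, 7.13 and 6.93 at 3 weeks and 7.82, 9.03 and 8.19 at 12 weeks. Each of the 9 cuprizone arrays lay above each of the 3 untreated ones. Among the 10 genes, Igf1 had the widest range over the arrays. Its means in order were 8.35 ± 0.62 in wild-type at 12 weeks, 7.87 ± 0.38 in GnT-IX-deficient at 12 weeks, 7.56 ± 0.92 in wild-type at 3 weeks and 5.94 ± 0.16 in wild-type at 0 weeks (SD, n = 3 each); neighbours among the first 3 overlapped in their arrays.

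At 3 against 0 weeks Igf1 rose by 1.61 on the log2 scale (SE 0.38, 95% confidence interval 0.81 to 2.42, limma adjusted p = 0.0308), a 3.06-fold change. At 12 against 0 weeks it rose by 2.40 (SE 0.38, interval 1.60 to 3.21, adjusted p = 0.00428), or 5.29-fold. In GnT-IX-deficient mice after 12 weeks against wild-type mice at 0 weeks it rose by 1.92 (SE 0.38, interval 1.12 to 2.73, adjusted p = 0.0144), or 3.79-fold. These comparisons share the 0-week arrays. The 12-week rise in wild-type passed 0.05 in all 14 alternative settings, with adjusted p from 0.000542 to 0.0337. The 3-week rise missed it when untreated replicate 1, 2 or 3 was left out (adjusted p = 0.0866, 0.114 and 0.0793) and when 3-week replicate 1 was left out, where the difference was 1.09 (adjusted p = 0.101). With the replicate number as a block its adjusted p was 0.0505. The rise in GnT-IX-deficient mice missed 0.05 when untreated replicate 1 or 2 was left out (0.0561 and 0.0664) and without GnT-IX-deficient replicate 2 or 3 (0.0691 and 0.0549).

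Microglia and macrophage markers moved with Igf1. Of the 13 measured markers, 9 rose at 3 weeks, 11 at 12 weeks and 10 in GnT-IX-deficient against untreated wild-type arrays, and the medians were 2.28, 2.99 and 2.23. These counts are 69.2%, 84.6% and 76.9% of the markers, against 3.24%, 2.64% and 4.11% of all genes. No marker was listed at 0, and at 0 weeks 1, 1 and 2 of the 13 lay below the lower quartile of their array. Aif1, which encodes the microglial protein IBA1, averaged 2.34 at 0 weeks, below the lower quartile. The 2 highest marker means, 9.00 in wild-type replicate 2 at 12 weeks and 8.83 in wild-type replicate 1 at 3 weeks, came with the 2 highest Igf1 values, 9.03 and 8.61. The 3 lowest marker means and the 3 lowest Igf1 values were those of the untreated arrays. The part of these cells in the Igf1 difference was not tested. In such bulk samples a different share of cells of a type and a different amount of RNA per cell cannot be told apart.

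**Figure D1:**
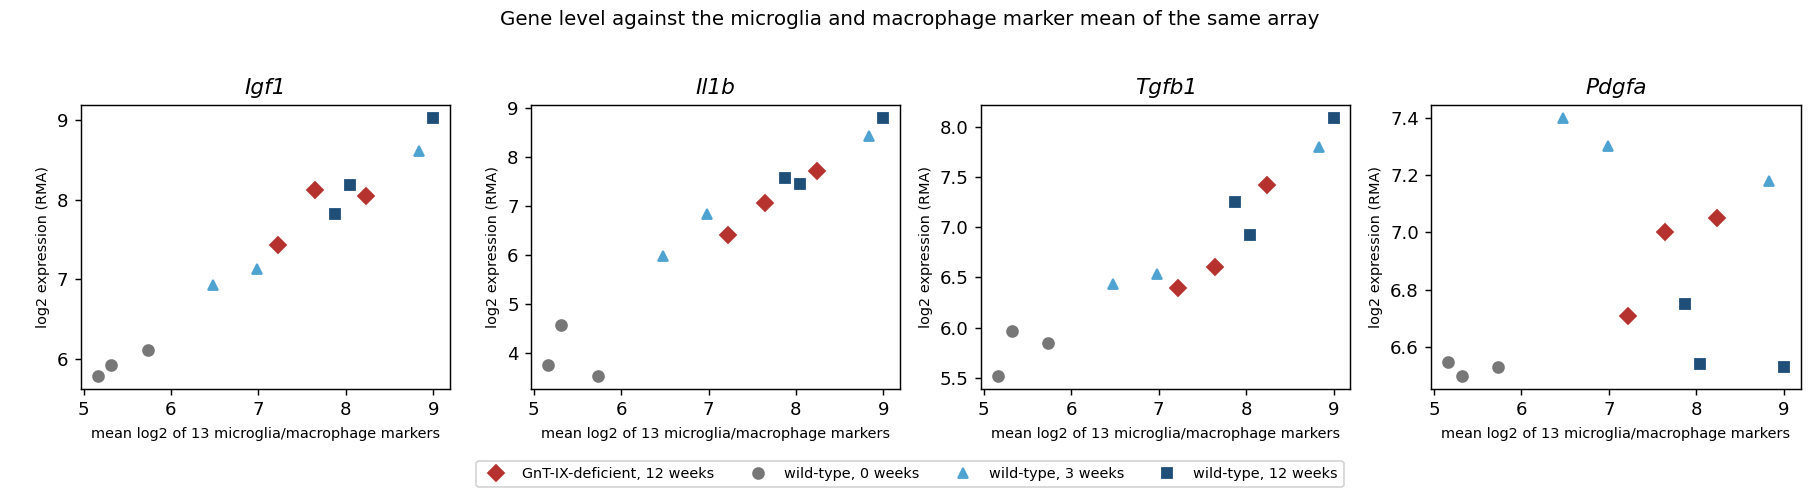
Each panel plots log2 expression of a gene (y axis) against the mean log2 level of 13 microglia and macrophage markers in the same array (x axis), with 1 point for each of 12 arrays, as diamonds for GnT-IX-deficient arrays at 12 weeks and circles, triangles and squares for wild-type arrays at 0, 3 and 12 weeks. Igf1, Il1b and Tgfb1 are high where the marker mean is high, up to 9.03 for Igf1 at a marker mean of 9.00, while Pdgfa has its highest values, 7.18 to 7.40, in the 3-week arrays.

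The genes with the profile nearest to that of Igf1 over the 12 arrays, by root mean square difference after centring, were Fyb (0.17), Ctsh (0.21) and Anxa3 (0.21), against an SD of 1.07 for Igf1 itself. Fyb encodes an adaptor protein of T cells and myeloid cells, Ctsh the lysosomal protease cathepsin H, and Anxa3 an annexin. Fyb read 4.97, 5.78 and 5.79 in GnT-IX-deficient arrays, and in wild-type arrays 3.85, 3.72 and 4.03 at 0 weeks, 6.71, 4.83 and 4.92 at 3 weeks and 5.78, 6.73 and 5.98 at 12 weeks. Like Igf1, it was highest in replicate 1 of the 3-week group and replicate 2 of the wild-type 12-week group. Fyb was chosen for its likeness to Igf1 over these same arrays, so such a match follows from the choice. Its untreated values were near the lower quartile of 3.73 to 3.85.

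Pdgfa encodes the A chain of platelet-derived growth factor, a mitogen of oligodendrocyte precursors. It read 6.71, 7.05 and 7.0 in GnT-IX-deficient arrays, and in wild-type arrays 6.53, 6.55 and 6.50 at 0 weeks, 7.18, 7.30 and 7.40 at 3 weeks and 6.75, 6.53 and 6.54 at 12 weeks. The 3 arrays of the 3-week group were the highest of all 12, and the untreated arrays and wild-type arrays at 12 weeks overlapped. By mean the order was 7.29 ± 0.11 in wild-type at 3 weeks, 6.92 ± 0.18 in GnT-IX-deficient at 12 weeks, 6.61 ± 0.12 in wild-type at 12 weeks and 6.53 ± 0.025 in wild-type at 0 weeks (SD, n = 3 each).

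Pdgfa rose by 0.77 at 3 against 0 weeks (SE 0.16, interval 0.43 to 1.10, limma adjusted p = 0.0165), a 1.70-fold change. Its call ended when untreated replicate 1, 2 or 3 was left out (adjusted p = 0.0671, 0.0576 and 0.0512) and when 3-week replicate 3 was left out (0.0584), while the difference stayed between 0.71 and 0.82 in all 14 alternatives. At 12 against 3 weeks the difference was -0.69 (SE 0.16, interval -1.02 to -0.35) with groups that did not overlap, and limma gave an adjusted p of 0.0913. At 12 against 0 weeks it was 0.08 (interval -0.26 to 0.41, adjusted p = 0.878). GnT-IX-deficient minus wild-type at 12 weeks was 0.31 (interval -0.02 to 0.65, adjusted p = 0.732), with overlapping arrays. GnT-IX-deficient at 12 weeks minus wild-type at 0 weeks was 0.39 (adjusted p = 0.159), with arrays that did not overlap.

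Of 7 measured oligodendrocyte precursor markers none passed the test at 3 against 0 weeks, where 3.24% of all genes were called. Of the 7, 5 lay higher in all 3 arrays of the 3-week group than in any untreated array, against 10.8% of all genes. Their mean was 8.96 ± 0.14 at 3 weeks and 8.23 ± 0.26 at 0 weeks (SD, n = 3 each). At 12 weeks it was 8.82 ± 0.47 in wild-type and 8.50 ± 0.48 in GnT-IX-deficient arrays. Of 9 neuron markers 3 rose, with means of 6.61 ± 0.39 at 3 weeks and 5.95 ± 0.27 at 0 weeks. The neuron marker means at 12 weeks were 6.02 ± 0.13 in wild-type and 6.27 ± 0.22 in GnT-IX-deficient arrays. The part of either cell type in the Pdgfa difference was not tested. Pdgfra, the receptor gene, was not analysed here. The nearest profiles to that of Pdgfa, with an SD of 0.33, were those of Dusp7 (0.11), a phosphatase of ERK, Cfl2 (0.15), a cofilin, and Shmt2 (0.15), the mitochondrial serine hydroxymethyltransferase.

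Fgf1 and Fgf2 encode fibroblast growth factors that are released without a classical signal peptide. Fgf1 read 7.77, 7.39 and 7.54 in GnT-IX-deficient arrays, and in wild-type arrays 8.17, 8.13 and 7.79 at 0 weeks, 7.56, 7.61 and 7.88 at 3 weeks and 7.42, 7.39 and 7.60 at 12 weeks. Arrays of both 12-week groups lay below every untreated array, and those of 3 weeks overlapped with them. The differences from 0 weeks were -0.35 at 3 weeks (adjusted p = 0.349), -0.56 at 12 weeks in wild-type (SE 0.17, adjusted p = 0.115) and -0.46 at 12 weeks in GnT-IX-deficient mice (adjusted p = 0.135), none of them past 0.05 with limma. With array weights the 12-week difference in wild-type passed it (adjusted p = 0.0462).

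Fgf2 read 4.65, 5.09 and 4.77 in GnT-IX-deficient arrays, and in wild-type arrays 5.10, 4.59 and 4.28 at 0 weeks, 4.59, 4.17 and 4.59 at 3 weeks and 5.21, 4.99 and 5.01 at 12 weeks. The wild-type arrays at 12 weeks all lay above those at 3 weeks, by 0.62 on average (SE 0.21, limma adjusted p = 0.265). Against 0 weeks the difference was -0.21 at 3 weeks (adjusted p = 0.705), 0.41 at 12 weeks in wild-type (adjusted p = 0.389) and 0.18 in GnT-IX-deficient mice, with overlapping arrays in each.

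Vegfa encodes the growth factor of endothelial cells that hypoxia induces. Its values were 9.86, 9.63 and 9.43 in GnT-IX-deficient arrays, and in wild-type arrays 10.23, 9.78 and 9.99 at 0 weeks, 9.41, 9.53 and 9.38 at 3 weeks and 9.50, 9.70 and 9.69 at 12 weeks. Wild-type arrays of both cuprizone times lay below the untreated ones, and a GnT-IX-deficient array, replicate 1, overlapped with them. The difference at 3 against 0 weeks was -0.56 (SE 0.17, limma adjusted p = 0.0976), at 12 against 0 weeks -0.37 (adjusted p = 0.325), and in GnT-IX-deficient mice against untreated wild-type mice -0.36 (adjusted p = 0.239).

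Bdnf encodes brain-derived neurotrophic factor. It read 3.78, 3.04 and 4.04 in GnT-IX-deficient arrays, and in wild-type arrays 3.37, 2.87 and 3.10 at 0 weeks, 3.37, 3.52 and 3.57 at 3 weeks and 3.13, 3.65 and 3.63 at 12 weeks. In 11 of 12 arrays it lay below the array's lower quartile of 3.73 to 3.85, so these values are near the floor of the arrays and differences between them are uncertain. No comparison passed, with differences from 0 weeks of 0.37 at 3 weeks, 0.36 at 12 weeks and 0.51 in GnT-IX-deficient mice (limma adjusted p = 0.492, 0.542 and 0.233).

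**Figure D2:**
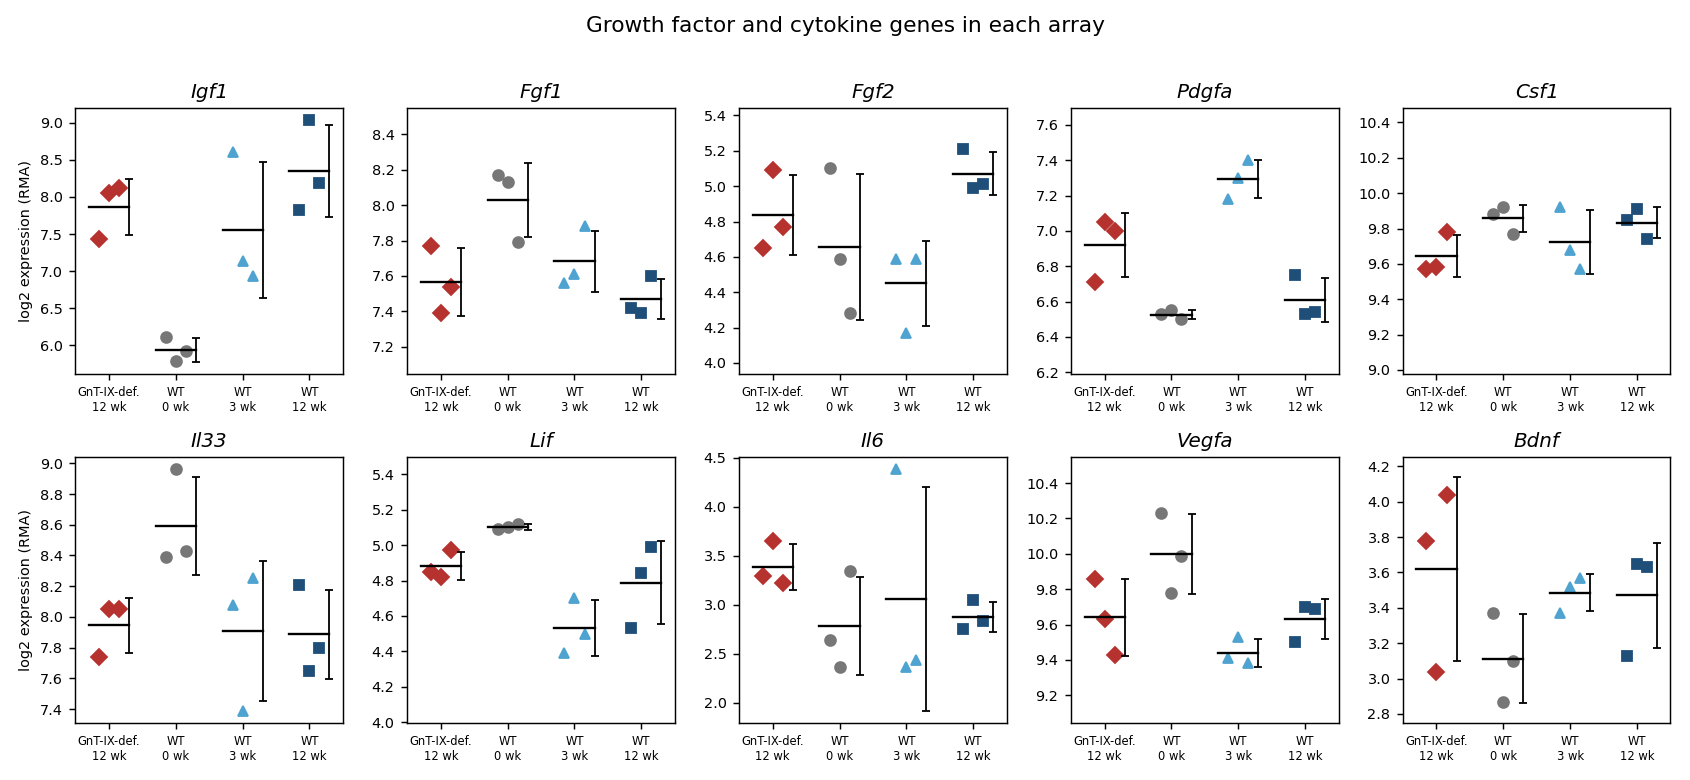
Log2 expression (RMA, y axis) of the 10 genes in the 12 arrays, by group on the x axis; points are arrays, horizontal lines are group means and error bars are SD (n = 3). Igf1 is above 6.9 in each cuprizone array and at most 6.11 in the untreated ones, and Pdgfa is highest at 3 weeks, at 7.18 to 7.40.

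Csf1 encodes colony stimulating factor 1, the ligand that microglia need. Its values were 9.57, 9.58 and 9.78 in GnT-IX-deficient arrays, and in wild-type arrays 9.88, 9.92 and 9.77 at 0 weeks, 9.92, 9.68 and 9.57 at 3 weeks and 9.85, 9.91 and 9.74 at 12 weeks. All 12 arrays lay between 9.57 and 9.92, and the groups overlapped in every comparison. The difference from 0 weeks was -0.13 at 3 weeks (95% confidence interval -0.47 to 0.20, limma adjusted p = 0.749), -0.02 at 12 weeks in wild-type (interval -0.36 to 0.31, adjusted p = 0.969) and -0.21 in GnT-IX-deficient mice (adjusted p = 0.465).

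Il33 encodes the alarmin interleukin 33. Its values were 7.74, 8.05 and 8.05 in GnT-IX-deficient arrays, and in wild-type arrays 8.39, 8.96 and 8.43 at 0 weeks, 8.08, 7.39 and 8.25 at 3 weeks and 8.21, 7.65 and 7.80 at 12 weeks. Each of the 9 cuprizone arrays was below each untreated array. The differences of -0.69 at 3 weeks, -0.71 at 12 weeks in wild-type and -0.65 in GnT-IX-deficient mice (SE 0.24 each) had limma adjusted p of 0.150, 0.151 and 0.131 and share the untreated arrays. The lower values of Il33, Lif, Vegfa and Fgf1 stood beside lower homeostatic astrocyte markers, whose median differences were -0.94 at 3 weeks, -0.48 at 12 weeks in wild-type and -0.70 in GnT-IX-deficient mice. The mature oligodendrocyte markers had median differences of -0.14, -0.80 and -0.52 in the same comparisons. The part of either cell type was not tested.

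Lif encodes leukemia inhibitory factor. It read 4.85, 4.82 and 4.97 in GnT-IX-deficient arrays, and in wild-type arrays 5.09, 5.10 and 5.12 at 0 weeks, 4.39, 4.70 and 4.50 at 3 weeks and 4.53, 4.84 and 4.99 at 12 weeks. Again all 9 cuprizone arrays lay below the 3 untreated ones, which differed by 0.03 at most among themselves. The difference was -0.57 at 3 weeks (SE 0.16, limma adjusted p = 0.0739), -0.32 at 12 weeks in wild-type (adjusted p = 0.391) and -0.22 in GnT-IX-deficient mice (adjusted p = 0.465). The 3-week difference passed 0.05 with array weights (adjusted p = 0.0442).

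Il6 encodes interleukin 6. Its values were 3.29, 3.65 and 3.22 in GnT-IX-deficient arrays, and in wild-type arrays 2.64, 2.37 and 3.34 at 0 weeks, 4.38, 2.37 and 2.44 at 3 weeks and 2.75, 3.05 and 2.84 at 12 weeks. In 11 of 12 arrays it lay below the lower quartile, and the exception, replicate 1 of the 3-week group, had the highest microglia and macrophage marker mean of its group, 8.83. The highest marker mean of all arrays, 9.00 in wild-type replicate 2 at 12 weeks, came with an Il6 value of 3.05. The part of microglia and macrophages in Il6 was not tested. The arrays of GnT-IX-deficient mice lay above those of wild-type mice at 12 weeks, by 0.51 on average (limma adjusted p = 0.825), in a range where the array gives little signal.

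Counted together, 2 of the 10 genes rose at 3 against 0 weeks, where 3.24% of all genes were called, and 1 rose at 12 against 0 weeks, where 2.64% were. In GnT-IX-deficient against untreated wild-type mice 1 rose, where 4.11% of genes were called. Counting rises alone, 1.61%, 2.11% and 2.41% of all genes were called in these comparisons, and none of the 10 genes fell. Groups did not overlap for 5 of 10 genes at 3 against 0 weeks, 2 higher and 3 lower, where 21.2% of all genes had such groups (10.8% higher, 10.5% lower). At 12 against 0 weeks they did not for 5 of 10, 1 higher and 4 lower, against 20.8% of all genes (10.8% higher, 9.95% lower). In GnT-IX-deficient against untreated wild-type mice they did not for 5 of 10, 2 higher and 3 lower, against 25.1% of all genes (12% higher, 13.1% lower). The median differences of the 10 genes in these comparisons were -0.17, 0.03 and -0.02, and those of all genes -0.02, -0.01 and -0.01. The median sizes were 0.47, 0.36 and 0.43 for the 10 genes and 0.19, 0.19 and 0.23 for all genes.

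At 12 against 3 weeks limma called none of the 10 genes, where 0.082% of all genes were called; Fgf2 and Pdgfa had an unadjusted p under 0.05. Groups did not overlap for these 2 genes, with 15.9% of all genes in that state. Igf1 differed by 0.79 (interval -0.01 to 1.59, adjusted p = 0.445). Without GnT-IX, limma again called none of the 10 against wild-type at 12 weeks, where 0.0256% of all genes were called, and 0 of the 10 had an unadjusted p under 0.05. Groups did not overlap for Il6 alone among the 10, and for 10.8% of all genes. The difference in Igf1 was -0.48 (interval -1.28 to 0.32, adjusted p = 0.821), which spans a fall and a small rise. For Vegfa it was 0.01 (interval -0.36 to 0.38), for Il33 0.06, for Lif 0.09, for Fgf1 0.10, for Bdnf 0.15, for Csf1 -0.19 (adjusted p = 0.828) and for Fgf2 -0.23 (adjusted p = 0.844). These intervals are wide enough that likeness of the genotypes is not shown.

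**Figure D3:**
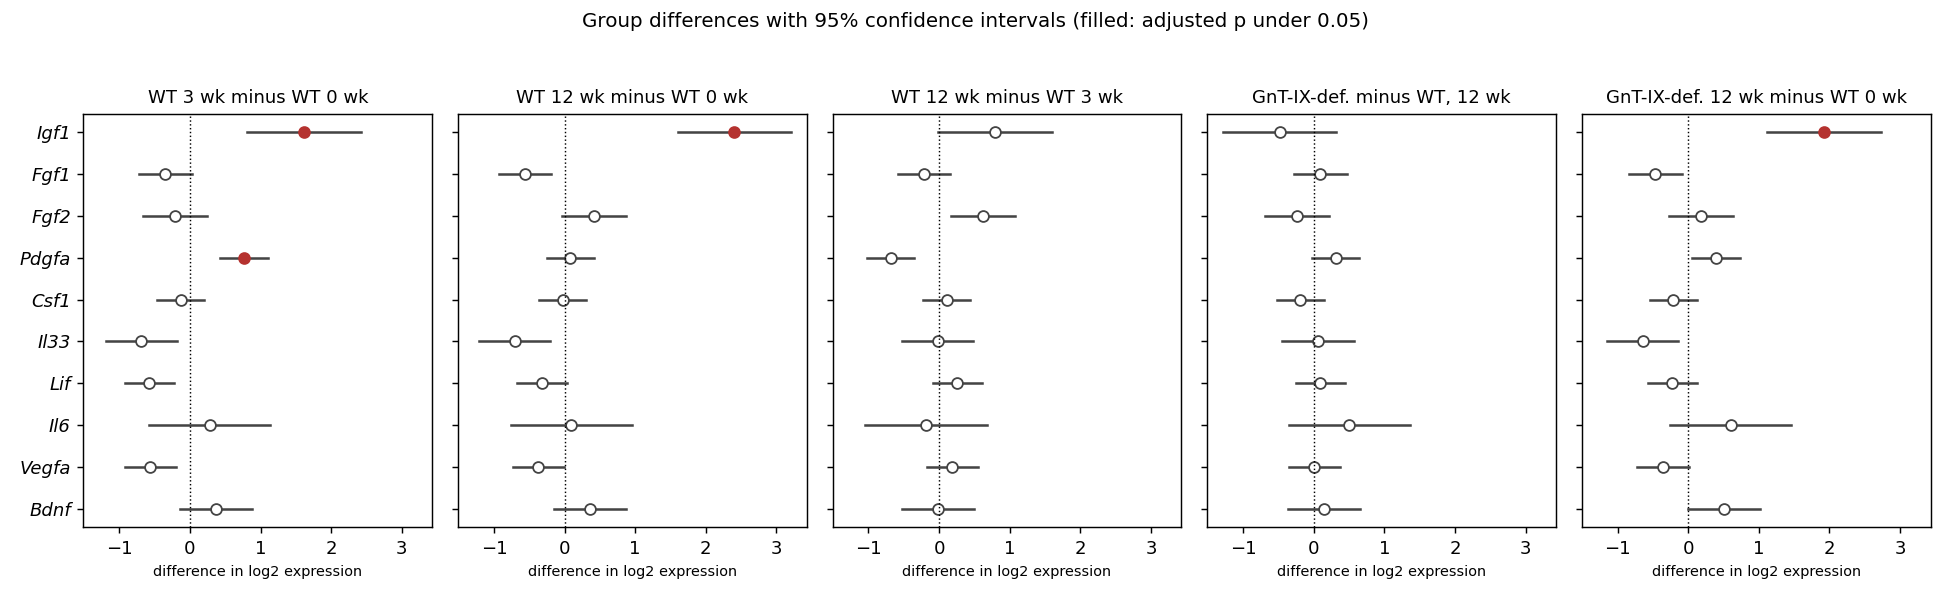
Differences in log2 expression (x axis) for the 10 genes (y axis) in 5 comparisons, with 95% confidence intervals; filled points have a limma adjusted p under 0.05. The filled points are Igf1 at 3 and 12 weeks in wild-type (1.61 and 2.40) and in GnT-IX-deficient against untreated wild-type (1.92), and Pdgfa at 3 weeks (0.77).

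The receptors of these ligands were described from a list of 21 genes, of which 18 were measured. At 3 against 0 weeks 2 rose and none fell, at 12 against 0 weeks 3 rose and 1 fell, and in GnT-IX-deficient against untreated wild-type mice 3 rose and 1 fell. These counts are 11.1%, 22.2% and 22.2% of the list, against 3.24%, 2.64% and 4.11% of all genes. The list's median differences were 0.13, 0.00 and -0.40. At 12 against 3 weeks and between the genotypes limma called none of the 18.

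Csf1r, the CSF-1 receptor gene of microglia and macrophages, read 8.51, 9.24 and 8.61 in GnT-IX-deficient arrays, and in wild-type arrays 7.10, 6.39 and 6.36 at 0 weeks, 9.90, 8.34 and 7.87 at 3 weeks and 9.28, 10.34 and 9.13 at 12 weeks. It rose by 2.09 at 3 weeks (SE 0.43, limma adjusted p = 0.0170), by 2.97 at 12 weeks (SE 0.43, adjusted p = 0.00242) and by 2.17 in GnT-IX-deficient mice (SE 0.43, adjusted p = 0.0151), beside no called change of its ligand gene Csf1. The other ligand gene of that receptor, Il34, differed by -0.29 at 3 weeks and 0.16 at 12 weeks (adjusted p = 0.478 and 0.755). Csf1r is also one of the genes of the microglial set, whose members moved with it, and that part was not tested. Leaving out single arrays gave adjusted p of up to 0.0759 at 3 weeks, without replicate 2 of the 0-week group, of up to 0.0226 at 12 weeks and of up to 0.0754 in GnT-IX-deficient mice, without their replicate 2.

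Nrp2, the gene of the VEGF coreceptor neuropilin 2, rose by 1.04 at 3 weeks (adjusted p = 0.0200), 1.00 at 12 weeks (0.0271) and 0.92 in GnT-IX-deficient mice (0.0341). These calls were lost without 4, 5 and 5 of the 6 arrays in turn, with adjusted p of up to 0.0861, 0.151 and 0.119. Kdr, the main VEGF receptor gene of endothelium, rose by 1.12 in GnT-IX-deficient mice (adjusted p = 0.0279), and had differences of 0.89 and 0.93 in wild-type at 3 and 12 weeks (adjusted p = 0.0793 and 0.0747). That call was lost without 4 of the 6 arrays, with adjusted p of up to 0.126. The 11 endothelial markers averaged 6.64 ± 0.42 in GnT-IX-deficient arrays, 5.62 ± 0.11 in wild-type at 0 weeks, 6.08 ± 0.54 at 3 weeks and 6.62 ± 0.20 at 12 weeks (SD, n = 3 each). Of these, 4 rose at 12 weeks in wild-type and 5 in GnT-IX-deficient mice. That is 36.4% and 45.5% of the list, against 2.64% and 4.11% of all genes. Kdr is itself one of the 11 markers and enters these means and the count in GnT-IX-deficient mice. The part of endothelial cells in the receptor differences was not tested.

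Il6ra, the ligand-binding chain of the IL-6 receptor, rose by 1.80 at 12 weeks (SE 0.35, limma adjusted p = 0.0146), to 7.25, 7.92 and 7.05 in wild-type arrays at 12 weeks against 5.80, 5.38 and 5.64 at 0 weeks. It lost the call without 2 of 6 arrays, with adjusted p of up to 0.0944 without replicate 2 of the 12-week group, the array with the highest microglial marker mean of all arrays. The part of microglia and macrophages in the Il6ra difference was not tested. Il6st, which encodes gp130, differed by 0.54 at 3 weeks and 0.01 at 12 weeks (adjusted p = 0.327 and 0.991), and Lifr, its partner for LIF, by -0.33 and -0.41 (adjusted p = 0.548 and 0.448). In GnT-IX-deficient against untreated wild-type mice Lifr differed by -0.80 (SE 0.23, limma adjusted p = 0.0622), with arrays that did not overlap. Il6st differed by -0.39 there (adjusted p = 0.417). Among FGF receptors, Fgfr2 fell by 0.80 at 12 weeks (adjusted p = 0.0337), a call lost without 5 of the 6 arrays, with adjusted p of up to 0.174. Fgfr3, a receptor of astrocytes, read 10.59, 9.72 and 9.44 in GnT-IX-deficient arrays, and in wild-type arrays 11.63, 11.21 and 10.94 at 0 weeks, 9.80, 10.50 and 9.84 at 3 weeks and 11.04, 9.90 and 10.50 at 12 weeks. The GnT-IX-deficient and 3-week arrays all lay below the untreated ones, and the wild-type arrays at 12 weeks overlapped with them. Fgfr3 fell by 1.34 in GnT-IX-deficient mice against untreated wild-type mice (SE 0.32, adjusted p = 0.0326), a call lost without 4 of the 6 arrays, with adjusted p of up to 0.149. Against the same untreated arrays its difference in wild-type was -1.21 at 3 weeks (SE 0.32, adjusted p = 0.0539, past 0.05 in 6 of 14 alternatives) and -0.78 at 12 weeks (adjusted p = 0.260). Between the genotypes at 12 weeks it was -0.56 (adjusted p = 0.761), so Fgfr3 is not shown to differ between them. Homeostatic astrocyte markers were lower beside Fgfr3, and their part was not tested. Ntrk2, the TrkB gene, differed by -0.25 at 3 weeks and 0.08 at 12 weeks (adjusted p = 0.534 and 0.896).

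**Figure D4:**
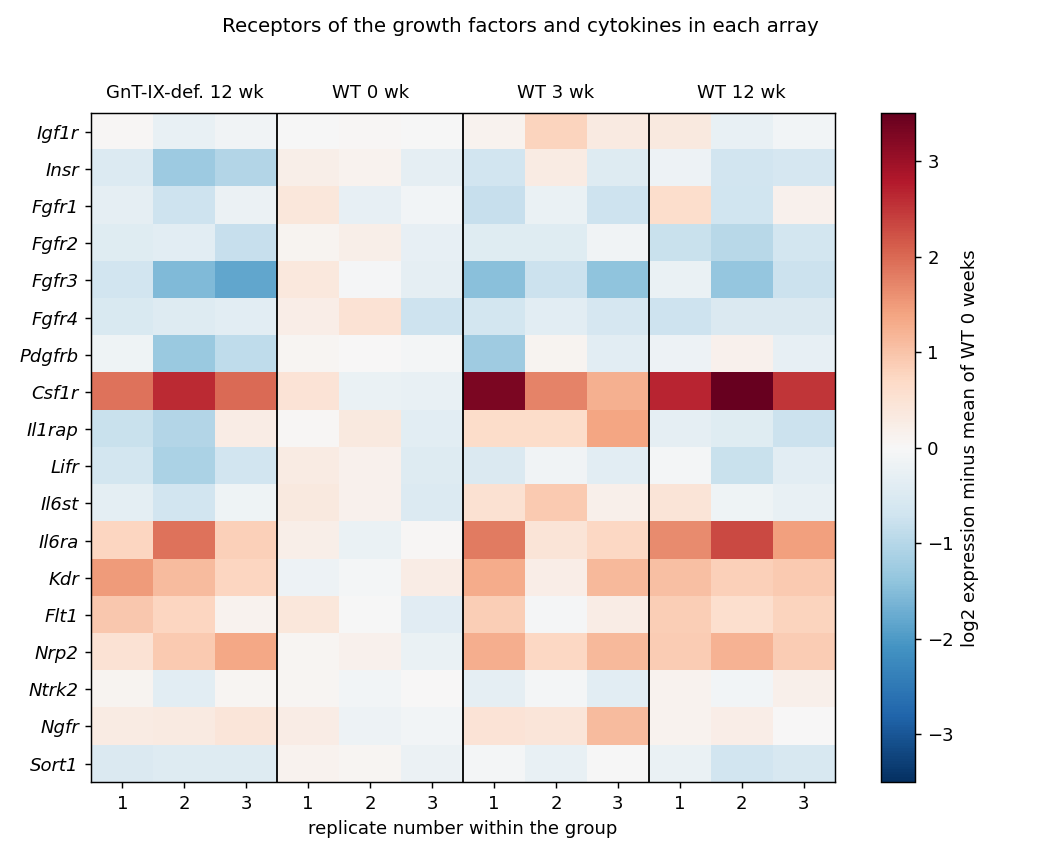
Log2 expression minus the mean of wild-type at 0 weeks (colour) for the 18 measured receptor genes (rows) in the 12 arrays (columns, by group and replicate). Csf1r is higher in all 9 cuprizone arrays, by at least 1.25, and Ntrk2 stays within 0.36 of the untreated mean on the low side and 0.19 on the high side.

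IGF-1 acts in a setting of binding proteins and proteases, of which 18 of 18 listed genes were measured. At 3 weeks 2 rose and 1 fell, at 12 weeks 2 rose and 2 fell, and in GnT-IX-deficient against untreated wild-type mice 1 fell, with list medians of 0.03, 0.25 and 0.33. The counts are 16.7%, 22.2% and 5.56% of the list, against 3.24%, 2.64% and 4.11% of all genes, and the share in GnT-IX-deficient mice is near that of all genes. None passed at 12 against 3 weeks or between the genotypes. The receptor genes themselves did not pass: Igf1r differed by 0.41 at 3 weeks and -0.01 at 12 weeks (limma adjusted p = 0.330 and 0.989), and Insr, the insulin receptor gene, by -0.28 and -0.48 (adjusted p = 0.677 and 0.435). In GnT-IX-deficient against untreated wild-type mice Insr differed by -0.93 (interval -1.49 to -0.36, limma adjusted p = 0.0610), with arrays that did not overlap. Igf1r differed by -0.11 there (adjusted p = 0.801).

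Igfbp3, the main IGF carrier of serum, read 6.55, 6.67 and 6.56 at 3 weeks against 4.54, 5.77 and 5.22 at 0 weeks, in groups that did not overlap. It rose by 1.42 (SE 0.25, adjusted p = 0.00612), and at 12 weeks, with 5.79, 5.50 and 5.61 in wild-type arrays, the difference was 0.46 (adjusted p = 0.419). Htra1, a secreted serine protease, read 10.34, 10.36 and 10.03 in GnT-IX-deficient arrays, and in wild-type arrays 11.36, 11.26 and 11.06 at 0 weeks, 9.81, 9.81 and 10.34 at 3 weeks and 10.41, 10.06 and 10.71 at 12 weeks. It fell by 1.24 at 3 weeks (SE 0.20, adjusted p = 0.00471), by 0.83 at 12 weeks (adjusted p = 0.0423) and by 0.98 in GnT-IX-deficient mice (adjusted p = 0.0184). The 3-week calls of Igfbp3 and Htra1 held in all 14 alternatives. Homeostatic astrocyte markers were lower beside Htra1, and their part was not tested. The later calls of Htra1 were lost without 5 and 4 of the 6 arrays, with adjusted p of up to 0.235 and 0.0959.

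Igfbp2, an IGF binding protein of astrocytes and of choroid plexus, read 10.50, 10.12 and 9.11 in GnT-IX-deficient arrays, and in wild-type arrays 9.65, 9.87 and 9.46 at 0 weeks, 8.30, 8.67 and 8.96 at 3 weeks and 8.41, 8.24 and 8.48 at 12 weeks. In wild-type it fell by 1.28 at 12 weeks (SE 0.28, adjusted p = 0.0251), a call that was lost without 4 of the 6 arrays, with adjusted p of up to 0.127. The GnT-IX-deficient arrays all lay above the wild-type ones at 12 weeks, by 1.53 (SE 0.28, interval 0.93 to 2.13), and limma gave an adjusted p of 0.122. GnT-IX-deficient replicates 1 and 2, the highest in Igfbp2, were also the highest in choroid plexus markers, with means of 8.13 and 7.12 against 4.51 to 5.39 in wild-type at 12 weeks, and their part was not tested. Igfbp7 rose by 0.82 at 12 weeks (adjusted p = 0.0359) and Pappa, a protease that cleaves IGF binding proteins, by 1.35 (adjusted p = 0.0447). These calls were lost without 4 and 5 of the 6 arrays, with adjusted p of up to 0.183 and 0.174. Pappa read 3.32, 3.07 and 3.22 in untreated arrays, below the lower quartile of 3.73 to 3.85, so the size of its rise is uncertain. Adam10, a sheddase, rose by 0.77 at 3 weeks (adjusted p = 0.0458), a call lost without 5 of the 6 arrays, with adjusted p of up to 0.202.

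**Figure D5:**
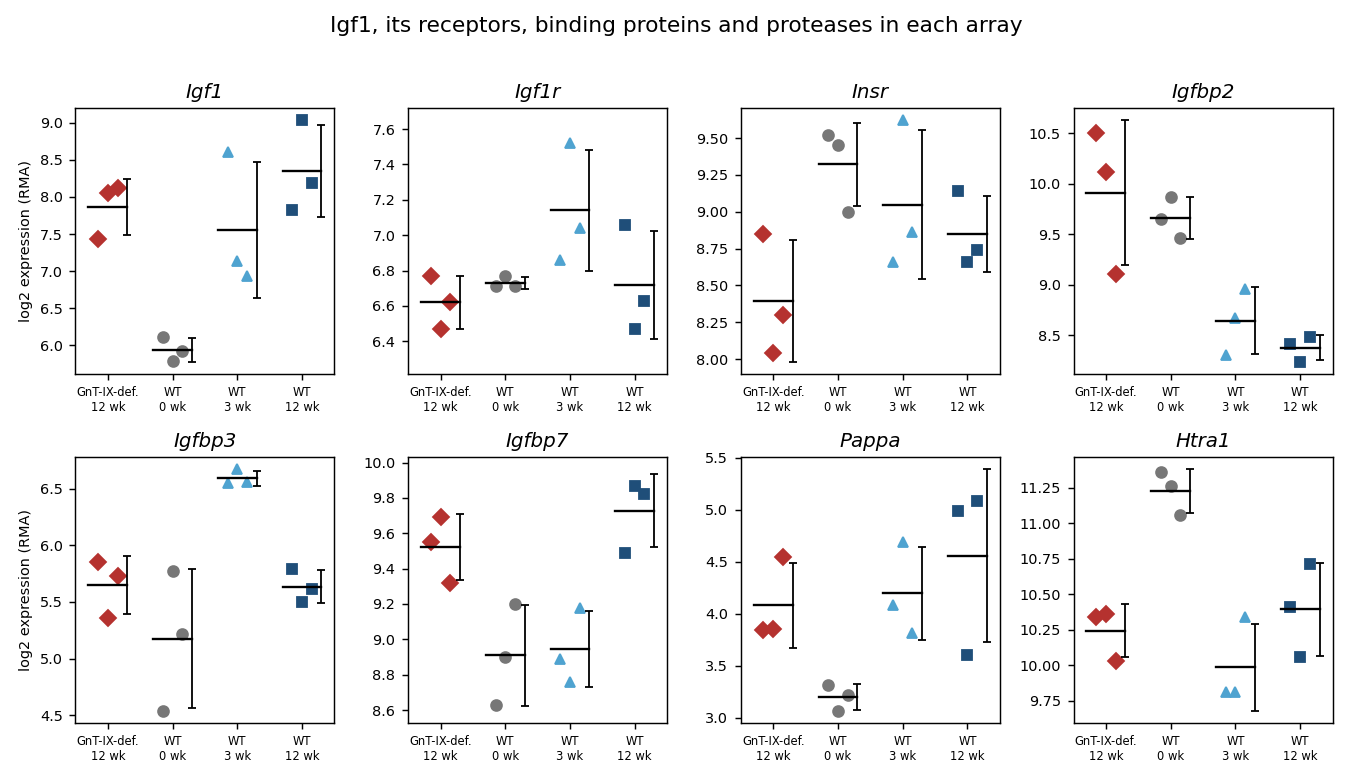
Log2 expression (RMA, y axis) of Igf1 and 7 genes of its receptors, binding proteins and proteases by group (x axis); points are arrays, horizontal lines are means and error bars are SD (n = 3). Igf1 is lowest and Htra1 highest in the untreated arrays, and Igfbp3 is highest at 3 weeks (6.55 to 6.67). Igfbp2 has its lowest mean in wild-type at 12 weeks (arrays at 8.24 to 8.48), where its arrays overlap with those at 3 weeks.

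Of 37 other secreted growth factors 35 were measured. At 3 weeks 1 rose and 2 fell, at 12 weeks 1 rose, and in GnT-IX-deficient against untreated wild-type mice 1 rose, with list medians of -0.07, 0.01 and 0.07. That makes 8.57%, 2.86% and 2.86% of the list, against 3.24%, 2.64% and 4.11% of all genes, so the shares at 12 weeks in both genotypes are near those of all genes. Btc, an EGF receptor ligand, rose by 1.21 at 3 weeks (limma adjusted p = 0.0226). Ccn1, a matricellular protein, fell by 1.18 (adjusted p = 0.00965) and Hgf, hepatocyte growth factor, by 1.09 (adjusted p = 0.0481) at that time. Tgfb1 rose by 1.64 at 12 weeks (adjusted p = 0.0271), and Igf2, a second ligand of the IGF-1 receptor that choroid plexus secretes, rose by 1.20 in GnT-IX-deficient mice (adjusted p = 0.0466). Igf2 read 10.43, 9.67 and 8.88 in those arrays, in the order of their choroid plexus marker means, whose part was not tested. Leaving out single arrays cost Btc, Ccn1, Hgf, Tgfb1 and Igf2 the call in 5, 1, 5, 3 and 4 of 6 cases, with adjusted p of up to 0.0998, 0.0590, 0.202, 0.160 and 0.200. The largest loss came without replicate 1 of the 3-week group for Btc, replicate 1 of the 0-week group for Ccn1, Hgf and Igf2, and replicate 2 of the 12-week group for Tgfb1. The part of microglia and macrophages in the Tgfb1 difference was not tested.

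Of 28 other cytokines 23 were measured. At 3 weeks 3 rose and 1 fell, at 12 weeks 4 rose, and in GnT-IX-deficient mice against untreated wild-type mice 2 rose, with list medians of 0.11, 0.21 and 0.33. As shares of the list these are 17.4%, 17.4% and 8.70%, against 3.24%, 2.64% and 4.11% of all genes. The called gene with the largest rise in each of these comparisons was Il1b, interleukin 1 beta, with 6.42, 7.71 and 7.07 in GnT-IX-deficient arrays, and in wild-type arrays 3.53, 3.75 and 4.58 at 0 weeks, 8.44, 6.84 and 5.98 at 3 weeks and 7.58, 8.81 and 7.45 at 12 weeks. All cuprizone arrays lay above all untreated ones. Untreated replicates 1 and 2 were below or near the lower quartile of 3.73 to 3.85, so the size of the rise is uncertain. Il1b rose by 3.13 at 3 weeks (SE 0.52, adjusted p = 0.00471), 3.99 at 12 weeks (adjusted p = 0.00131) and 3.11 in GnT-IX-deficient mice (adjusted p = 0.00660), and these calls held in all 14 alternatives.

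Il18, an interleukin 1 family cytokine, read 9.13, 8.92 and 9.08 at 3 weeks against 10.10, 10.02 and 10.15 at 0 weeks, and fell by 1.05 (adjusted p = 0.00463), also in all 14 alternatives. The part of the lower homeostatic astrocyte markers in it was not tested. Tnf rose by 2.15 at 3 weeks (adjusted p = 0.0233) and 2.54 at 12 weeks (0.0115), and Il1a by 2.44 (0.0489) and 3.03 (0.0208). For Tnf these calls were lost without 4 and 2 of the 6 arrays, with adjusted p of up to 0.0950 and 0.0777, and for Il1a without 5 and 5, with adjusted p of up to 0.160 and 0.124. In untreated arrays Il1a read 2.83, 3.29 and 2.85, below the lower quartile of 3.73 to 3.85, and Tnf read 3.63, 4.10 and 3.66, near it, so the sizes of these rises are uncertain. Lgals3, the gene of galectin 3, rose by 1.93 at 12 weeks (adjusted p = 0.00635, at most 0.0462 without single arrays) and by 1.21 in GnT-IX-deficient mice (adjusted p = 0.0466, lost without 5 of the 6 arrays, up to 0.159). The microglia and macrophage markers moved with the rises of Il1b, Il1a, Tnf and Lgals3, and their part was not tested.

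Genes that respond to these ligands were read from 3 further lists. Of 14 gp130 and STAT3 response genes, all measured, 1 rose in each comparison with untreated arrays, which is 7.14% of the list, against 3.24%, 2.64% and 4.11% of all genes. The list medians were 0.55 at 3 weeks, 0.53 at 12 weeks and 0.28 in GnT-IX-deficient mice. The gene was Junb, an AP-1 transcription factor, with 8.01, 9.06 and 8.30 in GnT-IX-deficient arrays, and in wild-type arrays 6.49, 6.10 and 6.86 at 0 weeks, 8.45, 8.24 and 7.90 at 3 weeks and 8.70, 9.44 and 8.45 at 12 weeks. All cuprizone arrays were above the untreated ones. Junb rose by 1.71 at 3 weeks (limma adjusted p = 0.00592), 2.38 at 12 weeks (0.00115) and 1.97 in GnT-IX-deficient mice (0.00443), in all 14 alternatives each.

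Socs3, the feedback inhibitor of gp130 signalling, was between 4.02 and 4.62 in all arrays and was not called. Of 14 FGF and ERK feedback genes 1 fell at 3 weeks, Etv4 (-0.86, adjusted p = 0.0340, up to 0.147 without single arrays and lost in 5 of 6 cases), and none passed in the other comparisons. The single gene is 7.14% of that list, against 3.24% of all genes. The medians of that list were 0.03 at 3 weeks, -0.18 at 12 weeks and -0.28 in GnT-IX-deficient mice. Of 17 hypoxia and HIF target genes none passed at 3 weeks and 1 rose at 12 weeks in each genotype against untreated arrays, Egln3, an oxygen-sensing prolyl hydroxylase (1.08 in wild-type, adjusted p = 0.0443; 1.03 in GnT-IX-deficient mice, adjusted p = 0.0441). It lost these calls without 4 of the 6 arrays in both cases, with adjusted p of up to 0.212 and 0.186. A single gene is 5.88% of this list, against 2.64% and 4.11% of all genes. The list medians were -0.04 at 3 weeks, 0.07 at 12 weeks and 0.01 in GnT-IX-deficient mice, beside the Vegfa differences of -0.56, -0.37 and -0.36.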

How the data were processed

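RNA of GLAST-selected white matter cells was measured on 12 arrays in 4 groups of 3. Per the labels' protocols, RNA was labelled with a 3' IVT Pico kit. The authors deposited log2 values, made with RMA in Affymetrix Expression Console 1.4, per the submitters' processing notes. RMA gives the arrays a common distribution and compresses differences of dim genes. For the array's genome build, nothing was given in the sources used here. No detection calls were used here, so dim genes were marked by the lower quartile of each array.

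Sample titles gave the groups and replicate numbers. Of 22206 transcript clusters, 19572 had 1 gene symbol, updated through Entrez identifiers to RefSeq (GRCm38.p6), and 2634 are unnamed here and were left out. Where a gene had several clusters (55 genes, none of the 10 described), the brightest over the 12 arrays was used, which left 19505 genes. No 2 arrays held identical values, and within groups the correlation of arrays over genes was 0.974 to 0.985. Precision is limited by having 3 arrays a group.

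All genes were tested in one fit over 12 arrays in R 4.3.3 with the limma package, version 3.58.1 (two-sided moderated test from eBayes, 1 mean per group, 8 residual degrees of freedom) with Benjamini-Hochberg adjustment over all genes at 0.05. The self-test of this fit was run on simulated data. The 10 genes and all lists were chosen with earlier results of these data known. Named by rule were the 10 genes, Mgat5b, Slc1a3, up to 4 called members per list and comparison by size, and the 3 nearest profiles of each called gene of the 10. Aif1, Igf1r, Insr, Il34, Il6st, Lifr, Ntrk2 and Socs3, and values of named genes where they were not called, were added after their values were seen. Counts of marker and list genes refer to those measured; the other listed genes were not analysed here. The alternatives were median centring, repeated quantile normalization, leaving out the dimmest 30% of genes, the mean of clusters, a trended robust variance, array weights, the 6 arrays compared only, the replicate block and leaving out each array. Promoter windows came from RefSeq, GRCm38.p6. Figures were drawn with matplotlib 3.10.9.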

Additional observations from a re-analysis of the deposited data

How the results depend on the processing

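The called differences of Igf1 and Pdgfa kept their direction in all 14 alternatives. Of 50 differences of the 10 genes, 13 changed sign in at least 1 alternative, none of them a call, among them Csf1 at 12 against 0 weeks (-0.08 to 0.05) and Il6 at 3 against 0 weeks (-0.38 to 0.63). Calls changed for Igf1 (3 weeks, and GnT-IX-deficient against untreated wild-type), Pdgfa (3 weeks), Lif (3 weeks) and Fgf1 (12 weeks). At 3 against 0 weeks the replicate block left 1 of the 10 genes called, against 2 in the analysis without it, and 543 of all genes, against 632. It called 442, 15, 5 and 817 of all genes at 12 against 0 weeks, at 12 against 3 weeks, between genotypes and in GnT-IX-deficient against untreated wild-type, against 514, 16, 5 and 801 without it. Deviations from the group mean had r from -0.28 to 0.22 between arrays with the same number in different groups (18 pairs, 6 of them over 0.1). Between arrays with different numbers r ran from -0.30 to 0.34. Deviations within a group of 3 arrays are tied to one another, so these values can neither show nor exclude a pairing by number. At 12 against 0 weeks, array weights called 919 genes and 2 of the 10. At 12 against 3 weeks 9 genes were called without the dimmest genes, 30 with a trended robust variance, 33 with array weights and 9 with the 6 arrays compared. Leaving out single arrays called 192 to 643 genes at 3 against 0 weeks (lowest without replicate 1 of 0 weeks), 77 to 504 at 12 against 0 weeks (lowest without replicate 2 of 12 weeks), 0 to 146 at 12 against 3 weeks (0 with 1751 genes at an unadjusted p under 0.05, without replicate 3 of 3 weeks; 146 without replicate 1), 3 to 49 between genotypes (49 without GnT-IX-deficient replicate 3) and 98 to 1062 in GnT-IX-deficient against untreated wild-type (lowest without replicate 1 of 0 weeks). Of the 10 genes, 0 to 2 were called at 3 against 0 weeks, with 4 to 6 at an unadjusted p under 0.05 where none was called; 1 at 12 against 0 weeks; and 0 to 1 in GnT-IX-deficient against untreated wild-type. These cases have fewer arrays; the cause of the other shifts was not tested. Besides leaving out arrays, 1 or more settings ended calls of Fgfr2, Htra1, Igfbp7, Pappa, Il1a and Egln3 (12 against 0 weeks), of Adam10, Hgf, Il1a and Tnf (3 against 0 weeks) and of Igf2, Lgals3 and Egln3 (GnT-IX-deficient against untreated wild-type). Il6, Bdnf and Pappa fall among the dimmest 30% and have no value there. Values near the lower quartile limit what can be read from Il6 and Bdnf.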
